A study of Mus musculus with 6 samples.

Results

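Genes for the synthesis of sterols and fatty acids were examined in RNA sequencing of stimulated primary osteocytes. The set held 32 genes chosen by symbol from the 56748 genes listed, and all 32 had enough counts to be tested. They comprised 7 genes of precursor supply and the mevalonate pathway, 11 genes of the steps from squalene to cholesterol, 6 regulators or sterol carriers, and 8 genes of fatty acid synthesis, elongation and desaturation.

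RNA was sequenced in 3 WT libraries (C57BL/6J mice) and 3 libraries labelled cKO, from mice with floxed Gsdmd alleles and a Cre recombinase driven by the Dmp1 promoter (Gsdmd fl/fl; DMP1-Cre). Gsdmd encodes gasdermin D, the protein that forms membrane pores in pyroptosis, an inflammatory cell death. Osteocytes, the cells embedded in bone matrix, were released from the long bones of mice, given as 7 weeks old in the isolation protocol, and were cultured for 7 days. All samples had received 10 ng/mL of lipopolysaccharide (LPS) over 3 h and a further 3 h of aluminum hydroxide, a trigger of inflammasomes, at 20 µg/mL. Only stimulated libraries were analysed here, and the comparison is between genotypes after stimulation. The records do not say whether the replicates came from separate animals or cultures, and p-values then measure only the spread between these samples, which may be technical.

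Cholesterol and fatty acids are both built from acetyl-CoA. In the mevalonate pathway, acetyl-CoA is condensed and reduced to isoprenoid units, which are joined into squalene and folded into lanosterol, and a chain of oxidation and reduction steps then gives cholesterol. The genes of this pathway share regulators, the sterol regulatory element-binding proteins (SREBPs). These are held in the endoplasmic reticulum with their escort SCAP by the INSIG proteins when sterols are plentiful, and are released to the Golgi and cleaved into active transcription factors when sterols are scarce. SREBP2 is known mainly for sterol genes and SREBP1 for fatty acid genes, and liver X receptors, which sense oxysterols, raise transcription of Srebf1 and of cholesterol exporters.

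The libraries held between 39566835 and 49734046 counts on genes, and members took 0.286% to 0.306% of the counts in WT libraries, against 0.251% to 0.259% in those labelled cKO. Gsdmd itself was higher in the libraries labelled cKO, at 22.5 ± 1.33 counts per 1000000 scaled counts (CPM, mean ± SD, n = 3) against 13.9 ± 0.339 in WT, with a log2 fold change of 0.69 (adjusted p = 2.27e-06, edgeR). A count over the whole gene includes exons outside the floxed part and therefore does not test the deletion. Its direction goes against the label, but it cannot show whether the labels are right. Every direction below is given for libraries as they are labelled. Xist, the RNA of the inactive X chromosome, averaged 1138 CPM in the libraries labelled cKO and 0.0468 CPM in WT, while Ddx3y, Eif2s3y, Uty and Kdm5d, all on the Y chromosome, had 0 counts in each library labelled cKO. Sex and genotype therefore cannot be told apart in any value below. Of the 544 tested genes on chromosome X, which holds Nsdhl and Ebp among the members, 125 were higher and 117 lower.

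Markers of other cells also differed between the groups. All 12 macrophage markers were higher in the libraries labelled cKO, by 1.73 to 4.25 on the log2 scale, and their summed level was 6688 to 7001 CPM against 1236 to 1386 CPM in WT. Of the 10 osteocyte markers, 4 were tested. Capg was higher (279 CPM against 201 CPM in WT). Pdpn (193 against 234 CPM) and Ptprz1 (0.222 against 1.04 CPM) were lower, and Irx5 did not pass. The summed list, most of it Capg and Pdpn, was 472 to 483 CPM against 422 to 464 CPM in WT. Only Capg was called higher, so this sum does not show that osteocyte RNA as a whole was higher. Among those not tested, Sost and Dkk1 were at 0 in every library. Mepe, Phex and Fgf23 averaged at most 0.401 CPM in either group. Dmp1, the gene whose promoter drives the Cre, averaged 0.0344 CPM in WT and 0.0955 CPM in the libraries labelled cKO. Of 6 tested osteoblast markers, Ibsp and Alpl were higher (log2 fold changes of 2.01 and 0.68) and Sp7, Runx2, Col1a1 and Spp1 lower. Their sum, most of it Spp1 and Col1a1, was 9080 to 9297 CPM against 13605 to 15441 CPM. Of 10 markers of adipocytes and adipogenic stroma, 4 were tested and all 4 were higher (Fabp4, Pparg, Lpl and Cxcl12). The summed list was 1085 to 1116 CPM against 322 to 385 CPM in WT, most of it Cxcl12 (1053 against 334 CPM). Plin1, Cidec, Cfd and Lep were at 0 in every library. Chondrocyte markers had 6 of 7 tested higher and 1 lower. The lower was Col2a1, the most abundant of them in WT (798 CPM against 1428 CPM in WT). Of the higher, Col9a1 and Col9a2 had 0 counts in each WT library and Acan averaged 0.124 CPM there. Osteoclast markers had 2 higher and 2 lower of 6 tested. Fibroblast markers had 1 of 8 tested higher and 5 lower, and endothelial markers 1 of 6 higher and 5 lower. In bulk RNA, fewer cells of a type and less RNA per cell cannot be told apart, and the part of these markers in the results below was not tested.

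Promoter sequences, which carry the sites that SREBPs and their partner factors are known to use, were available for 25 of the 32 genes, as windows from 250 bases before to 50 bases after the transcription start (RefSeq, GRCm38.p6). Fdps, Fdft1, Sqle, Stard4, Scd1, Scd2 and Fads1 had no entry. Both strands were searched for TCACNCCAC (the core of the sterol regulatory element), CCAAT (the box bound by NF-Y, a factor known to act with SREBPs) and CACGTG (an E-box). The sterol element core was found in 1 of 25 member genes (4.0%) and in 1.44% of all 27025 genes with a window. CCAAT was found in 20 of 25 (80.0%) against 41.1% of all genes, and CACGTG in 5 of 25 (20.0%) against 8.09%. A gene was counted if any of its windows matched, and the 25 members had 33 windows. The 27025 genes were not matched to the members in level. By role, CCAAT was present in 9 of 9 genes from squalene to cholesterol, in 5 of 6 genes of the mevalonate group, in 4 of 5 regulators and in 2 of 5 fatty acid genes. A match is a description of letters and not a bound site, and the shares are those of these windows only.

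The windows of 5 genes are shown in lower case with motif matches in capitals, 5′ to 3′ on the gene's strand. Hmgcs1 (chr13:119690101-119690400, plus strand) is shown because it alone held the sterol element core, and Msmo1 (chr8:64733529-64733828, minus strand) and Insig1 (chr5:28071162-28071461, plus strand) because their RNA was higher in the libraries labelled cKO. Fasn (chr11:120824498-120824797, minus strand) and Fads2 (chr19:10101454-10101753, minus strand) are shown because their RNA was lower.
Hmgcs1: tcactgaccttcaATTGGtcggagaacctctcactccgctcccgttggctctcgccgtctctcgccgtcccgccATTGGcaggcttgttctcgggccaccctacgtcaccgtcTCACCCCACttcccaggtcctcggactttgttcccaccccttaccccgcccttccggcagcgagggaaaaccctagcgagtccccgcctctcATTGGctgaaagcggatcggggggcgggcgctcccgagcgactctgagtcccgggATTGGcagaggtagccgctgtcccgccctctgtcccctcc
Msmo1: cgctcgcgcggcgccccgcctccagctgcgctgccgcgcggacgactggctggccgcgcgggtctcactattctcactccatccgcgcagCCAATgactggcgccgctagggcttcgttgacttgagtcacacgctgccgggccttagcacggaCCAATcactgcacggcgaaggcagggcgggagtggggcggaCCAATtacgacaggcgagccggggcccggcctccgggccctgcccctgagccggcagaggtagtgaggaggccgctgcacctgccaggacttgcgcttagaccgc
Insig1: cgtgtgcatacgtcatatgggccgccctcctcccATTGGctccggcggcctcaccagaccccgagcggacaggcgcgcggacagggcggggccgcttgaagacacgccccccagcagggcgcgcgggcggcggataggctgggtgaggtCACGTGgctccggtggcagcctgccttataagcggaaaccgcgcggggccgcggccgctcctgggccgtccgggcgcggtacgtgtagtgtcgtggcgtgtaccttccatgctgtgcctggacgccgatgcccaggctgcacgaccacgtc
Fasn: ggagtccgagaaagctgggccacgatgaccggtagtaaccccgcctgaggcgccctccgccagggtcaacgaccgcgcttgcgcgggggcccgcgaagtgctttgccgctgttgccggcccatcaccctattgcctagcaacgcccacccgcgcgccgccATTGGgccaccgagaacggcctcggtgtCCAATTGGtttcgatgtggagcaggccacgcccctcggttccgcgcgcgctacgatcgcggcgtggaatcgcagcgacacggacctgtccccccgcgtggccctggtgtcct
Fads2: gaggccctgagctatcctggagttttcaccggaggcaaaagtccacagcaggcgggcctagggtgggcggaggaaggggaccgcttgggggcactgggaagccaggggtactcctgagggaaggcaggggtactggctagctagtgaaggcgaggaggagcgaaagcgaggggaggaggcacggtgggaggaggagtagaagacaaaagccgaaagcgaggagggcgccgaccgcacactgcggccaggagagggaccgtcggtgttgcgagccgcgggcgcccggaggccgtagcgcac
In Hmgcs1 the sterol element core began 137 bases before the start, and CCAAT boxes, read on the other strand as ATTGG, began 237, 176 and 45 bases before it, with a further box inside the transcript. Msmo1 held 3 CCAAT boxes, at 160, 96 and 55 bases before the start. Insig1 held an E-box at 101 bases and a CCAAT box at 216 bases. Fasn held a box at 90 bases and a pair at 62 and 59 bases that share letters in CCAATTGG. Fads2 held none of the 3 motifs in this window.

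At an adjusted p below 0.05, 12 of the 32 genes were higher and 8 were lower in libraries labelled cKO, and 12 did not pass (edgeR quasi-likelihood test, p-values adjusted by Benjamini-Hochberg over 17146 tested genes). Over all tested genes 20.1% were higher and 19.2% lower, and over the 9443 tested genes with a mean of at least 10 CPM, a level that all members but Pmvk, Fdps and Tm7sf2 reached, 25.0% were higher and 24.6% lower. Of the members, 37.5% were higher and 25.0% lower, so the share that was lower lay at the background of genes of that level. The directions differed by role. Of the 18 enzymes of sterol synthesis, 8 were higher and 0 lower, whereas of the 8 fatty acid genes 6 were lower and 1 higher. No sterol enzyme was lower at an unadjusted p below 0.05, and the count of lower sterol enzymes was also 0 with DESeq2 and with limma-voom, while it was 1 in each of the 2 groups of sterol enzymes with upper quartile factors. The changes were small. No member reached a log2 fold change of 1 in size, a limit that 11.2% of all tested genes passed together with the adjusted p, and members ranged from -0.79 to 0.48. Their median was 0.11 against 0.01 over all tested genes, and 0.038 with upper quartile factors. The members' median log2 CPM in a library had an SD between replicates of 0.060, pooled over genotypes. That is not the spread of the median fold change. Relative to the WT mean, the median over members was -0.038, -0.048 and 0.090 in the WT libraries and 0.080, 0.091 and 0.15 in those labelled cKO, so the groups overlapped. The libraries of the groups did not overlap for 22 members, against 49.2% of all tested genes, with 13 above and 9 below WT.

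The split between higher and lower calls depended on the scaling. With upper quartile factors 8 members were higher and 11 lower, and over all genes 2799 were higher and 4294 lower, against 3445 and 3285 with the TMM factors used here. Under those factors Acat2, Hsd17b7 and Fads1 also passed as lower, and Mvd, Sqle, Lss and Acaca no longer passed. Over 16 alternatives of test, scaling, filter and libraries left out, 12 of the 20 called members kept their call in every one. The 6 higher were Cyp51, Msmo1, Dhcr7, Srebf2, Insig1 and Stard4, and the 6 lower were Scap, Insig2, Fasn, Scd1, Scd2 and Fads2. The count of higher members moved more than that of lower ones when a library was left out. It was 7 without WT replicate 1, 6 without WT replicate 2, 14 without WT replicate 3, 8 without cKO replicate 1, 8 without cKO replicate 2 and 7 without cKO replicate 3, while the count of lower members stayed between 6 and 8.

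**Figure D1:**
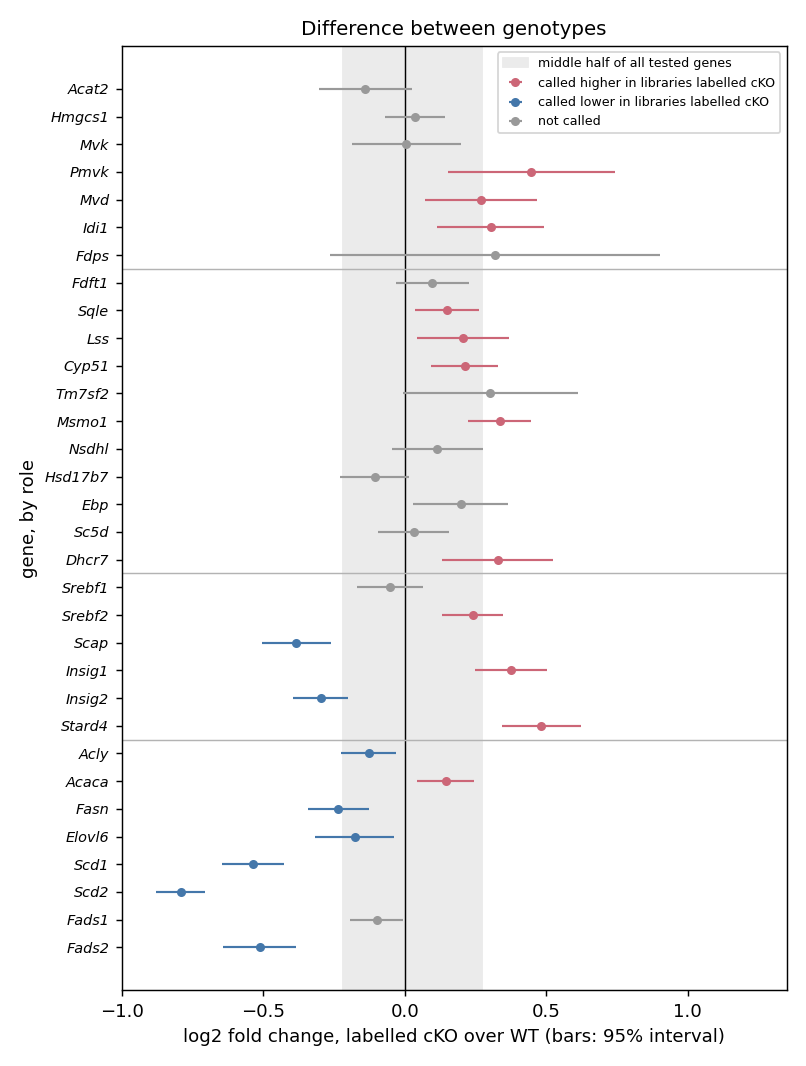
Log2 fold changes of the 32 genes, libraries labelled cKO over WT (horizontal axis), in order of role (vertical axis), with 95% intervals as bars. The grey band spans the middle part of all tested genes, from -0.22 to 0.27. Sterol genes in the upper blocks lie mostly to the right of zero and fatty acid genes at the bottom mostly to the left, but with upper quartile factors Hmgcs1, Mvk and Sc5d fall to the left of zero.

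Levels between genes were compared per length, as CPM per 1000 bases of the deposited gene length. Scd2 was the highest of the 32 in both groups, at 146 ± 5.52 in WT and 84.0 ± 3.23 in the libraries labelled cKO (SD, n = 3). Scd1 followed in WT at 51.8 ± 4.13 and Acly at 42.3 ± 2.15, while in the libraries labelled cKO Acly, at 38.7 ± 1.36, lay above Scd1, at 35.7 ± 1.04. The lowest by its counts was Fdps, at 0.331 ± 0.0475 and 0.413 ± 0.0671. Its level is uncertain, because 6 near-identical loci lie elsewhere in the genome. Scd2 alone took 26.5% to 27.4% of all member counts in WT, against 17.9% to 18.6% in those labelled cKO. Replicates were close, and the median coefficient of variation over members was 6.60% between WT libraries and 3.92% between those labelled cKO.

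**Figure D2:**
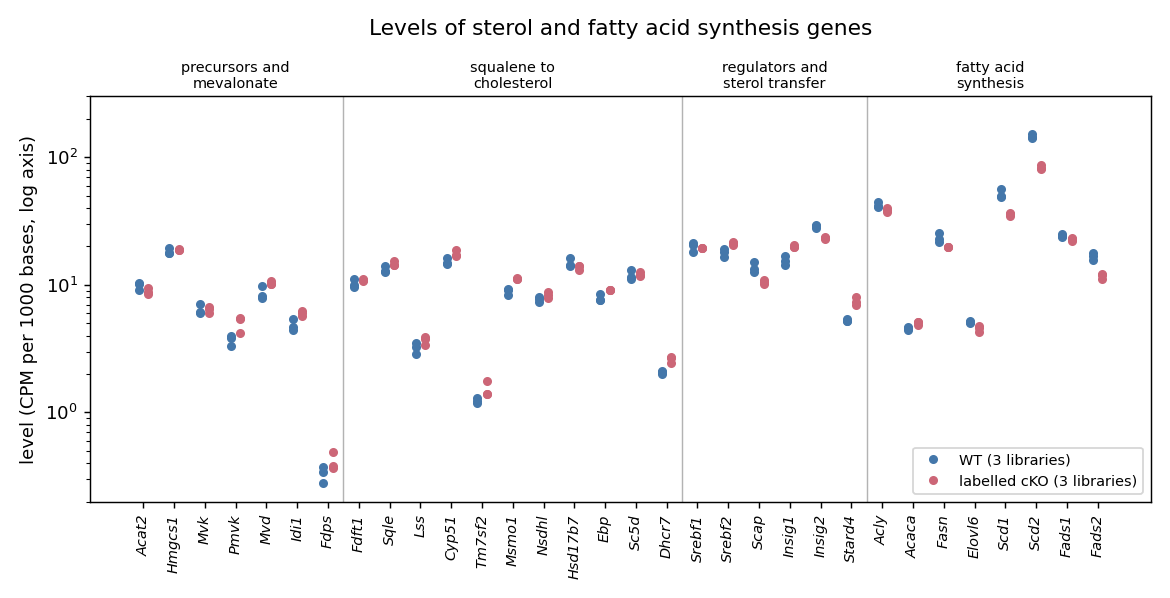
Level of each gene in each library, in CPM per 1000 bases on a log axis, grouped by role. Scd2 is the highest in both groups, at a mean of 146 in WT and 84.0 in libraries labelled cKO. Fdps is the lowest, but near-identical loci make its counts uncertain.

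Fatty acid genes gave the largest differences. Scd1 and Scd2 encode stearoyl-CoA desaturases, which place the first double bond in saturated fatty acids. Scd2 (ENSMUSG00000025203, chr19:44282113-44295303, plus strand, GRCm39, protein coding) measured 771, 785 and 829 CPM in WT and 444, 454 and 478 CPM in the libraries labelled cKO. Every library labelled cKO lay far below every WT library. The log2 fold change was -0.79 (SE 0.040, adjusted p = 2.70e-11), so its level fell by 42.3%. Scd1 (ENSMUSG00000037071, chr19:44382894-44396318, minus strand), its neighbour on the chromosome, measured 242, 241 and 277 CPM in WT and 176, 169 and 179 CPM in the libraries labelled cKO. Its groups did not overlap either, and the log2 fold change was -0.54 (SE 0.052, adjusted p = 1.56e-07), so its level fell by 31.1%. The ratio of Scd2 to Scd1 per length was 2.82 ± 0.120 in WT and 2.35 ± 0.0865 in the libraries labelled cKO, so that Scd2 made up less of the pair there. The other desaturase genes of this cluster were scarce, with Scd3 at 0 or 1 counts and Scd4 at 12 to 27 counts per library. Another locus matches 31.3% of the Scd2 transcript at 90.03% identity.

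Fads2 and Fads1 encode the desaturases that make long polyunsaturated fatty acids and also lie side by side on chromosome 19. Fads2 (ENSMUSG00000024665, chr19:10040129-10079110, minus strand) measured 51.6, 55.7 and 58.7 CPM in WT and 40.3, 39.2 and 36.8 CPM in the libraries labelled cKO. The groups did not overlap, and the log2 fold change was -0.51 (SE 0.061, adjusted p = 2.32e-06). Fads1 measured 117 ± 2.95 CPM in WT and 109 ± 2.69 CPM, and its log2 fold change of -0.10 did not pass (adjusted p = 0.0914), although its groups did not overlap. The ratio of Fads2 to Fads1 per length was 0.691 ± 0.0284 in WT and 0.520 ± 0.0362 in the libraries labelled cKO. These ratios are given without a test.

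Upstream of the desaturases, Acly makes cytosolic acetyl-CoA from citrate, Acaca carboxylates it to malonyl-CoA, Fasn builds palmitate and Elovl6 lengthens it. Fasn was lower in the libraries labelled cKO, at 217 ± 0.528 CPM against 255 ± 21.9 CPM, with a log2 fold change of -0.23 (SE 0.052, adjusted p = 0.00136). Acly, at 204 ± 7.18 against 223 ± 11.3 CPM, changed by -0.13 on the log2 scale (adjusted p = 0.0348), and Elovl6, at 29.2 ± 1.62 against 33.0 ± 0.733 CPM, by -0.18 (adjusted p = 0.0430). Acaca stood apart as higher, at 85.8 ± 2.71 against 77.6 ± 1.73 CPM, with a log2 fold change of 0.14 (adjusted p = 0.0227). The groups of all 8 fatty acid genes were separated, 7 below and 1 above WT, while 49.2% of all tested genes were separated in either direction. The summed level of the 8 genes was 1290 to 1348 CPM against 1754 to 1912 CPM in WT.

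The calls of Acly, Elovl6 and Acaca depended on which libraries were kept. Acly no longer passed without WT replicate 3 (adjusted p = 0.0729), cKO replicate 1 (0.182) or cKO replicate 2 (0.0881), or with library size alone as the scaling (0.0639). Elovl6 no longer passed without WT replicate 2 (adjusted p = 0.0776), WT replicate 3 (0.0647), cKO replicate 1 (0.197) or cKO replicate 3 (0.0983), with DESeq2 (0.0581), with library size alone (0.0721) or with no filter on low counts (0.0730). Acaca no longer passed without WT replicate 1 (adjusted p = 0.0777), WT replicate 2 (0.110), cKO replicate 2 (0.106) or cKO replicate 3 (0.0743), and with upper quartile factors its adjusted p was 0.210. Another locus of the genome matches 85.0% of the Acaca transcript at 99.5% identity, and another 44.4% of that of Elovl6 at 96.0%, so these counts are uncertain to that extent.

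**Figure D3:**
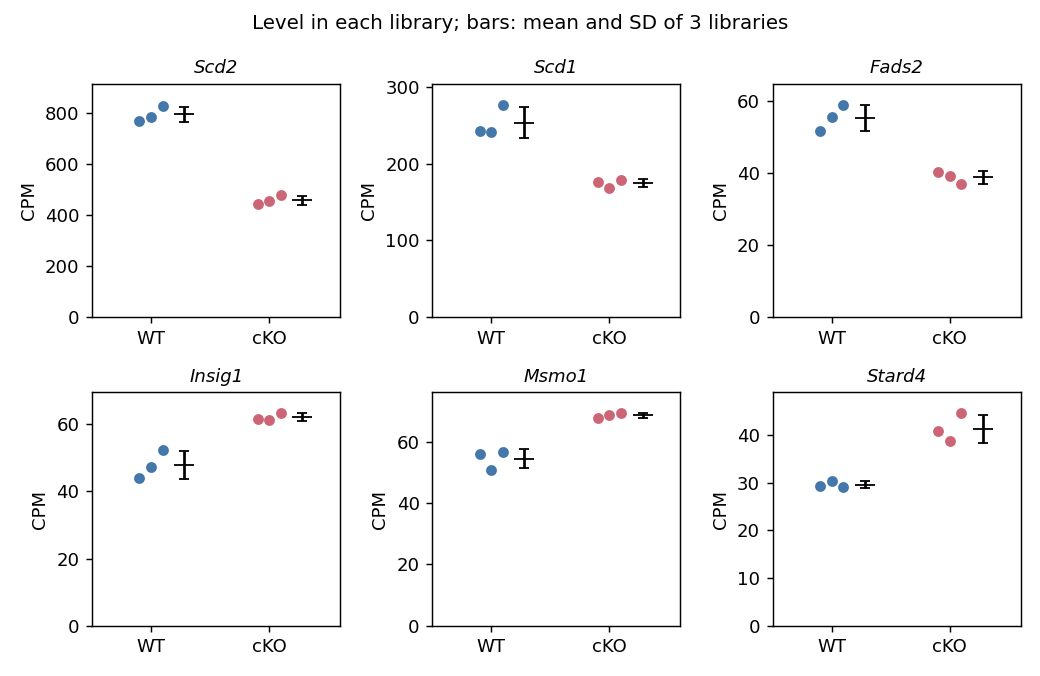
Level in each library, in CPM on axes from 0, for the 3 lower genes (top) and the 3 higher genes (bottom) with the smallest adjusted p-values. Points are libraries and bars the mean and SD of 3. In none of the 6 panels do the groups overlap, with Scd2 at 771 to 829 CPM in WT and 444 to 478 CPM in libraries labelled cKO.

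The regulators moved in both directions. Srebf2, which encodes SREBP2, measured 130.5, 119 and 136 CPM in WT and 147, 153.5 and 155 CPM in the libraries labelled cKO, which all lay above WT. Its log2 fold change was 0.24 (SE 0.051, adjusted p = 0.00100). Srebf1, which encodes SREBP1, measured 116, 102.5 and 120.1 CPM in WT and 109, 109 and 109 CPM in the libraries labelled cKO, within the WT range. Its log2 fold change was -0.05 with a 95% interval from -0.17 to 0.06 (adjusted p = 0.499). The ratio of Srebf2 to Srebf1 per length was 0.893 ± 0.0149 in WT and 1.09 ± 0.0295 in the libraries labelled cKO. Gene counts do not separate the transcript forms of Srebf1, and they do not measure the cleaved proteins.

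Scap, the escort of the SREBPs, measured 99.8, 94.5 and 112 CPM in WT and 78.2, 80.9 and 75.3 CPM in the libraries labelled cKO. The groups were separated, and Scap was lower by a log2 fold change of -0.38 (SE 0.058, adjusted p = 3.79e-05). The anchor genes Insig1 and Insig2 differed in opposite directions. Insig1, itself a known SREBP target, measured 44.0, 47.3 and 52.3 CPM in WT and 61.7, 61.3 and 63.4 CPM in the libraries labelled cKO, a log2 fold change of 0.38 (SE 0.060, adjusted p = 6.37e-05). Insig2 measured 101, 101.5 and 97.0 CPM in WT and 82.7, 81.3 and 79.3 CPM in the libraries labelled cKO, a log2 fold change of -0.30 (SE 0.046, adjusted p = 4.67e-05). In neither gene did the groups overlap. Another locus matches 98.3% of the Insig1 transcript at 97.8% identity, so its count is uncertain to that extent. The ratio of Insig1 to Insig2 per length was 0.540 ± 0.0586 in WT and 0.860 ± 0.0323 in the libraries labelled cKO, so Insig2 remained the more abundant of the pair in both.

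Stard4 encodes a soluble carrier that moves cholesterol between membranes. It measured 29.3, 30.4 and 29.1 CPM in WT and 40.8, 38.7 and 44.5 CPM in the libraries labelled cKO, above every WT library, and its log2 fold change of 0.48 (SE 0.066, adjusted p = 1.14e-05) was the largest increase among the 32 genes. Of the 6 regulators and carriers, 3 were higher, 2 lower and 1 did not pass (20.1% higher and 19.2% lower over all tested genes). All 5 calls held in each of the 16 alternatives. Their summed level was 521 ± 25.6 CPM in WT and 524 ± 3.62 CPM in the libraries labelled cKO.

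In the mevalonate group, 3 of 7 genes were higher and 0 lower, with a median log2 fold change of 0.27, while with upper quartile factors 2 were higher and Acat2 was lower. Among all tested genes, 20.1% were higher and 19.2% lower. Pmvk, which phosphorylates mevalonate phosphate, was higher at 8.66 ± 1.23 CPM against 6.36 ± 0.586 CPM, a log2 fold change of 0.45 (SE 0.14, adjusted p = 0.0163). Mvd, which yields the isoprenoid unit isopentenyl diphosphate, was higher at 19.2 ± 0.544 against 16.0 ± 1.92 CPM, by 0.27 (adjusted p = 0.0289), and Idi1, which isomerizes that unit, at 21.0 ± 1.12 against 17.0 ± 1.74 CPM, by 0.30 (adjusted p = 0.0119). The groups did not overlap in any of the 3. Hmgcs1, which forms the HMG-CoA from which mevalonate is made, measured 86.4 ± 0.936 CPM against 84.3 ± 4.53 CPM in WT. Its log2 fold change of 0.04 had a 95% interval from -0.07 to 0.14 (adjusted p = 0.610). Mvk, the mevalonate kinase, had a log2 fold change of 0.01 with an interval from -0.19 to 0.20 (adjusted p = 0.971). Acat2, the thiolase that starts the pathway, had -0.14 (adjusted p = 0.174), and the farnesyl diphosphate synthase gene Fdps, with only 53 to 82 counts per library, 0.32 (adjusted p = 0.402).

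The 3 calls of this group did not hold without every library. Pmvk no longer passed without WT replicate 2 (adjusted p = 0.0756), cKO replicate 1 (0.0734) or cKO replicate 3 (0.0866). Idi1 no longer passed without WT replicate 1 (adjusted p = 0.0618), WT replicate 2 (0.0759) or cKO replicate 1 (0.0612). Mvd no longer passed without WT replicate 1 (adjusted p = 0.167), WT replicate 2 (0.115), cKO replicate 1 (0.0597), cKO replicate 2 (0.103) or cKO replicate 3 (0.0589), and DESeq2 gave 0.0582. WT replicate 3 lay above the other WT libraries over this group, with a median of 0.15 on the log2 scale relative to the WT mean against -0.05 and -0.09. Near-identical loci elsewhere in the genome, at 90% identity or more over at least 30% of the transcript, number 6 for Fdps, 2 for Idi1 and 1 for Acat2, so their counts are uncertain.

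From squalene to cholesterol, 5 of 11 genes were higher and 0 lower, with a median log2 fold change of 0.20, while with upper quartile factors 3 were higher and Hsd17b7 was lower. The shares among all tested genes were 20.1% higher and 19.2% lower. Msmo1, which oxidizes methyl groups of the sterol ring, measured 56.0, 50.9 and 56.6 CPM in WT and 67.8, 68.8 and 69.7 CPM in the libraries labelled cKO. Its log2 fold change was 0.34 (SE 0.053, adjusted p = 5.52e-05) and the groups were far apart. Dhcr7, the reductase of the last step to cholesterol, was higher at 15.1 ± 0.854 against 12.0 ± 0.323 CPM, by 0.33 (SE 0.093, adjusted p = 0.00875). Cyp51, the lanosterol demethylase, was higher at 77.6 ± 4.09 against 67.0 ± 3.90 CPM, by 0.21 (SE 0.056, adjusted p = 0.00552). These 3 held in each of the 16 alternatives. Sqle, the squalene epoxidase and a rate-limiting enzyme of the pathway, was higher by 0.15 (adjusted p = 0.0356), at 81.1 ± 3.24 against 73.2 ± 4.22 CPM. Lss, which folds the epoxide into lanosterol, was higher by 0.21 (adjusted p = 0.0411), at 40.0 ± 2.95 against 34.7 ± 3.44 CPM, but its groups overlapped.

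The other 6 genes of these steps did not pass. Ebp, a sterol isomerase, measured 20.9 ± 0.0443 CPM against 18.3 ± 1.14 CPM in WT, with a log2 fold change of 0.20 and separated groups (adjusted p = 0.0577). Tm7sf2, a sterol reductase, had 0.30 (adjusted p = 0.118) at only 210 to 329 counts per library, also with separated groups. Fdft1, the squalene synthase, had 0.10 (adjusted p = 0.232) and Nsdhl, a dehydrogenase acting after Msmo1, 0.12 (adjusted p = 0.261). Hsd17b7, a ketosteroid reductase, had -0.11 (adjusted p = 0.168), and Sc5d, a sterol desaturase, 0.03 with an interval from -0.09 to 0.16 (adjusted p = 0.717).

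Sqle no longer passed without WT replicate 1 (adjusted p = 0.219), WT replicate 2 (0.143), cKO replicate 1 (0.0552), cKO replicate 2 (0.0614) or cKO replicate 3 (0.169), and Lss without WT replicate 1 (0.0922), WT replicate 2 (0.243), cKO replicate 2 (0.142) or cKO replicate 3 (0.186). DESeq2 gave adjusted p-values of 0.0743 for Sqle and 0.0824 for Lss. Without WT replicate 3, Fdft1 (0.0432) and Ebp (0.0236) passed as higher. Another locus matches 48.0% of the Fdft1 transcript at 97.8% identity, and another 33.8% of that of Sc5d at 91.0%. Exons of Fdft1 share 24.8% of their bases with Ctsb on the opposite strand, which had 68498 to 155773 counts per library, and those of Cyp51 share 21.1% with Akap9. In the mevalonate group, exons of Acat2 share 5.48% with Tcp1 on the opposite strand, which had 7320 to 12367 counts per library. The strand setting of the counting is not given in the sources used here, so reads of such overlaps may not have been told apart. Exons of Tm7sf2 share 10.8% with Vps51 (661 to 869 counts per library) on the same strand, where no strand setting would separate them.

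**Figure D4:**
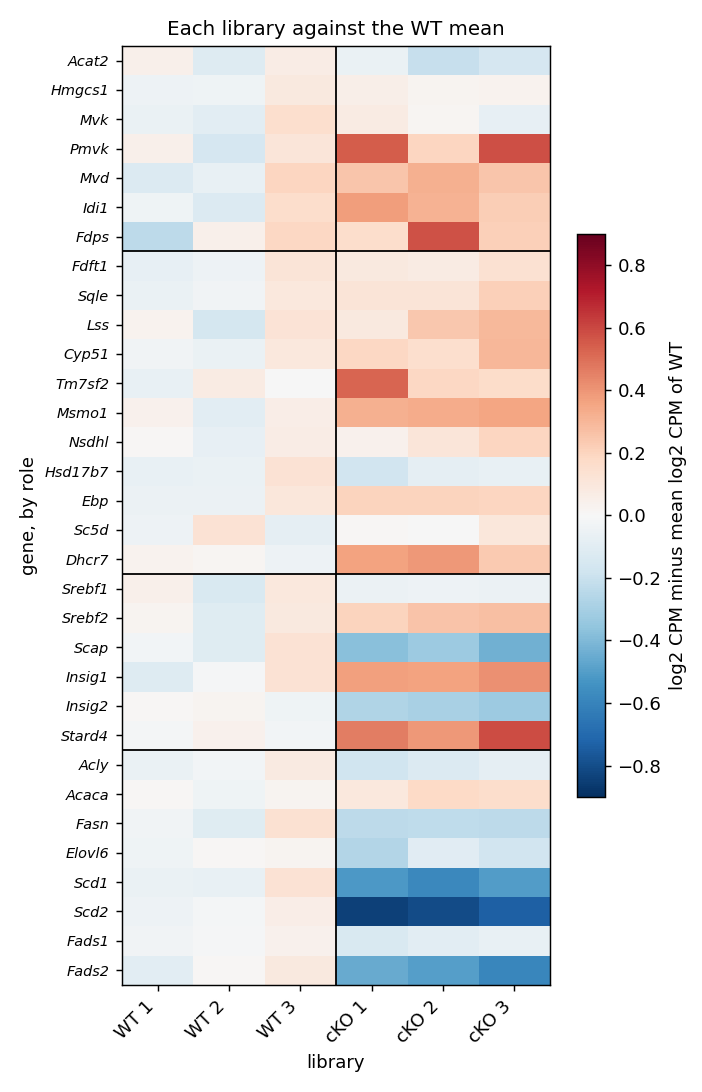
Log2 CPM of each gene (rows, by role) in each library (columns) minus the mean log2 CPM of the WT libraries, with red above and blue below that mean. The 3 libraries labelled cKO are alike, with Scd2 between -0.84 and -0.73 and Stard4 between 0.39 and 0.59, and WT replicate 3 is redder than the other WT libraries in most rows.

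Set against each other within each library, the summed fatty acid genes per length were 2.12 ± 0.0248 times the summed sterol enzymes in WT and 1.38 ± 0.0188 times in the libraries labelled cKO. Without Scd1 and Scd2 the ratio was 0.785 ± 0.00939 in WT and 0.635 ± 0.0126 in the libraries labelled cKO. The shift was thus present in the sum of the remaining 6 fatty acid genes too, though not in each of them. Among these, Acaca was higher and Fads1 did not pass. A higher denominator also lowers the ratio, and 8 of the 18 sterol enzymes were called higher. Such ratios do not depend on the scaling between libraries. The ranges did not overlap, at 2.10 to 2.14 against 1.36 to 1.39 for all members of both kinds. No test was made of these ratios.

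Genes that act beside this set were taken by role, and 41 of 44 were tested, of which 12 were higher (29.3%) and 6 lower (14.6%). Over all tested genes 20.1% were higher and 19.2% lower. Over tested genes with a mean of at least 10 CPM these shares were 25.0% and 24.6%. Mlxipl, Thrsp and Scd3 had too few counts. Of the 8 tested genes of the liver X receptors, their targets and oxysterol synthesis, 5 were higher and 0 lower, with a median of 0.23 on the log2 scale, and 0 were lower at an unadjusted p below 0.05, with DESeq2 or with limma-voom. Abca1, the exporter of cholesterol to apolipoprotein A-I, measured 188, 187 and 191 CPM in WT and 419.9, 435 and 454 CPM in the libraries labelled cKO, a log2 fold change of 1.21 (SE 0.041, adjusted p = 9.06e-14). Abcg1, an exporter to high-density lipoprotein, measured 5.22, 6.11 and 6.52 CPM in WT and 12.6, 13.3 and 13.3 CPM, a log2 fold change of 1.14 (SE 0.12, adjusted p = 4.09e-07). In both genes the groups were far apart. Nr1h3, a liver X receptor gene named after its value was seen, had a log2 fold change of 1.23 (adjusted p = 3.50e-06). It and both exporters are abundant in macrophages, whose markers were higher in the same libraries. That part of the difference was not tested.

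Of 18 tested genes of other fatty acid synthesis and activation, 5 were higher and 5 lower (27.8% each). These shares lay near the 25.0% and 24.6% of tested genes with a mean of at least 10 CPM. The largest difference was that of Acsl1, an acyl-CoA synthetase, at 32.8 ± 0.249 CPM in WT and 71.6 ± 0.955 CPM in the libraries labelled cKO, a log2 fold change of 1.13 (adjusted p = 4.86e-12). Mid1ip1, a partner of acetyl-CoA carboxylase, was higher by 0.53 (adjusted p = 6.79e-06). Me1, the malic enzyme that supplies NADPH for fatty acid synthesis, was lower by a log2 fold change of -0.43 (adjusted p = 1.72e-06), and Acss2, the cytosolic acetyl-CoA synthetase, by -0.57 (adjusted p = 7.73e-05). Both lie in the same direction as Fasn and the desaturases.

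Of 7 tested genes that cleave and turn over SREBPs, 1 was higher and 1 lower, while with upper quartile factors 0 were higher and 4 lower. With TMM factors the shares were 14.3% each, against 20.1% higher and 19.2% lower over all tested genes. Mbtps2, the protease of the second cleavage, was higher by 0.15 on the log2 scale (adjusted p = 0.0305), and Lpin1, a phosphatidate phosphatase, was lower by a log2 fold change of -0.25 (adjusted p = 0.00558). Mbtps2 no longer passed without WT replicate 1 (adjusted p = 0.102), WT replicate 3 (0.0707), cKO replicate 2 (0.118) or cKO replicate 3 (0.0872), with DESeq2 (0.0726), with no filter (0.0528) or with upper quartile factors (0.246). Of 8 genes of other isoprenoid synthesis, Dhdds, which makes the dolichol chain, was higher by 0.22 (adjusted p = 0.00473) and 0 were lower, while with upper quartile factors 1 was lower.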

How the data were processed

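RNA was sequenced in 3 WT libraries and 3 libraries labelled cKO. The authors trimmed paired-end reads, aligned them to GRCm39 with HISAT2 2.0.5 and counted them with featureCounts (1.55.0-p3 in the submitters' processing notes, while the paper names another release and also RSEM). They deposited raw counts per gene, not normalized, with a gene length in bases. The strand setting of the counting is not given in the sources used here. Library totals were 39566835 to 49734046 counts, and 63.4% to 65.7% of counts from 1 to 10 were even. Counts are not independent molecules.

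From the deposited counts, filterByExpr left 17146 genes, and genotype was the only term in edgeR 4.0.16 (TMM, glmQLFit, glmQLFTest, R 4.3.3), with Benjamini-Hochberg adjustment over all tested genes and calls at an adjusted p below 0.05. The standard error is the size of the log2 fold change over the square root of F. The procedure was tested on simulated data. CPM are counts over TMM-scaled library sizes. Levels per length use the deposited gene length. Near-identical loci were found with minimap2 2.31 on GRCm39.

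The members and lists were chosen with earlier results of these data known. Values per library are given for regulators and for called members with a log2 fold change of at least 0.5 in size, other members are described by group, and of each neighbouring list the 2 higher and 2 lower called genes with the smallest p are named. Msmo1 and Nr1h3 were given more room after their values were seen.

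Alternatives were DESeq2 1.42.0, limma-voom (limma 3.58.1), library size only, RLE and upper quartile factors, TMM without chromosomes X and Y, no filter, at least 10 counts in every library, counts halved, a replicate block, each library left out in turn and a fold limit. The share of calls among tested genes with a mean of at least 10 CPM was added after seeing the data. Promoters were searched as RefSeq windows. The RNA of unstimulated cells, protein and lipids were not analysed here.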

Additional observations from a re-analysis of the deposited data

How the results depend on the processing

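Of the 20 called genes, DESeq2 kept 16, limma-voom 20, RLE factors 18, upper quartile factors 16 and library size alone 18. Without 1 library each, between 13 and 18 kept their call. Reversals were limited to genes that had not passed. Mvk was at -0.0044 on the log2 scale with DESeq2, -0.0056 with RLE factors, -0.062 with upper quartile factors and -0.052 to 0.081 without 1 library. Hmgcs1 was at -0.031 and Sc5d at -0.037 with upper quartile factors, and without 1 library they ranged from -0.0025 to 0.077 and from -0.011 to 0.091. From squalene to cholesterol, 3 genes were higher with DESeq2, 3 with RLE factors, and 3 higher and 1 lower with upper quartile factors. Those factors also gave 0 fatty acid genes higher, 1 mevalonate gene lower, 1 other isoprenoid gene lower, 0 SREBP processing genes higher and 4 lower, and a members' median of 0.038, with the median of all genes at -0.061. SREBP processing genes had 0 higher with DESeq2 and with no filter.

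Without 1 library, the higher calls numbered 6 to 14 over members, 0 to 3 in the mevalonate group, 3 to 7 from squalene to cholesterol and 0 to 1 among fatty acid genes, and SREBP processing genes had 0 to 1 higher and 1 to 2 lower. With a fold limit of 1 on the log2 scale, 1124 genes were higher and 796 lower over all genes, and 0 members in each role group, higher or lower. Of the other lists, 3 liver X receptor genes were then higher, 1 other fatty acid gene was higher and 0 lower, and 0 isoprenoid and 0 SREBP processing genes passed in either direction. In the 100 bases before the start, the sterol element core was in 0 of 25 member genes (0.496% of all genes with a window), CCAAT in 16 (21.6%) and CACGTG in 2 (3.70%). The cause of these shifts was not tested.

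With the replicate number as a block, 12 members were higher and 7 lower, and Elovl6 had an adjusted p of 0.0527. Deviations of libraries with the same number correlated at -0.0055, 0.0023 and -0.010, so the numbers do not pair the samples. Fdps and Tm7sf2 had the lowest mean CPM of the members, and the cause was not tested.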
